A study of Homo sapiens with 4 samples.

Results

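Laminins are secreted proteins of the basement membrane, each built from an α, a β and a γ chain that coil together inside the cell before secretion. The end of the α chain binds integrins and dystroglycan on the cell surface, while the short arms of most chains tie the laminins into a sheet with one another and, through nidogen, with collagen IV. In brain they surround blood vessels, and glioma cells and glioma vessels both make them. The genes described here are the laminin chains LAMA1, LAMA2, LAMA3, LAMA4, LAMA5, LAMB1, LAMB2, LAMB3 and LAMC1, 9 in all, looked up by gene name in a table of 19555 genes. A named probe set was found for 8 of them, each with 1 probe set. LAMA2 was not analysed here. A single probe set without a gene name, described in the deposited table as moderately similar to the laminin α2 precursor, had intensities of 24 and 23 in the L243P clone, against 29 and 27 in the wild-type clone (log2 change -0.25, adjusted p = 0.55, limma), and it is not counted as a member.

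RNA from 4 cultures of the human malignant glioma line U87MG was hybridised to Affymetrix Human Gene ST arrays. Of these, 2 came from a stable clone with the L243P form of membrane alanyl-aminopeptidase (CD13/APN, encoded by ANPEP), which the labels call inactive, and 2 from another clone with the wild-type enzyme. Both constructs carry EGFP in their names, growth was comparable according to the labels, and the replicates of a clone came from separate experiments. Each form is represented by 1 clone, so form and clone cannot be told apart, and the p-values rest on how far repeat experiments with the same clone differed. The question was which transcripts differ between cells with the inactive and the active enzyme.

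Values are the authors' normalized intensities on a linear scale, without a unit. The array medians lay between 46 and 50, and correlations of log2 intensity were 0.995 within the L243P clone, 0.993 within the wild-type clone and 0.990 to 0.991 across the clones. ANPEP had intensities of 6439 and 7122 in the L243P clone, against 8447 and 9103 in the wild-type clone (log2 change -0.37, adjusted p = 0.16, limma). Both L243P arrays lay below both wild-type arrays, and the part of this difference in the results was not tested. The ANPEP probe set does not tell transcripts of the L243P form from those of the wild-type form. Of the markers of malignant glia, the structural genes VIM and CD44 were bright, with at least 6134 and 1889 on every array, while the astrocyte genes S100B and AQP4 were at 20 or lower. SOX2 had 31 and 43 in the L243P clone, against 44 and 43 in the wild-type clone. OLIG2 had 44 and 48, against 46 and 39, and both genes lay below the median of every array. NES, the nestin gene of immature glia, had 104 and 112 in the L243P clone, against 62 and 74 in the wild-type clone. Those arrays did not overlap, and the log2 change of 0.67 missed the threshold (adjusted p = 0.13, limma). NES passed only after median centring (adjusted p = 0.023, limma), which called 505 genes, against 189 in the fit used here. GFAP was not analysed here. Of 29 measured markers of endothelial, mural, epithelial, Schwann and immune cells, 0 passed the test. At an unadjusted p under 0.05 there were 5 (limma), against 13.5% of all genes. Among the endothelial genes, CDH5 and VWF were at 34 or lower on every array and CLDN5 at 66 to 76. TEK had 23 and 24 in the L243P clone, against 18 and 15 in the wild-type clone, and ESAM had 27 and 29, against 22 and 21. CDH5 had 26 and 29, against 34 and 30, and ERG had 22 and 24, against 31 and 25. TEK and ESAM were higher and CDH5 and ERG lower without overlap. None passed the threshold (adjusted p = 0.25, 0.34, 0.66 and 0.60, limma). The summed intensity of the immune markers was 2476 and 2645 in the L243P clone, against 2010 and 1948 in the wild-type clone. Nearly all of it came from CD68. This gene had 2406 and 2569, against 1932 and 1871 (log2 change 0.39, adjusted p = 0.11, limma). Of the 5 immune markers, 2 had a log2 change above 0 and 3 below it, with a median of -0.085. The mural sum was 624 and 616, against 557 and 554, of which ACTA2 made up 429 and 400, against 374 and 373. CSPG4 had 76 and 79, against 54 and 60, without overlap (log2 change 0.44, adjusted p = 0.24, limma). Of the 5 mural markers, 4 had a log2 change above 0 and 1 below it. The other 3 sums overlapped between the clones (endothelial 219 and 238, against 233 and 207). The part of these markers in the results was not tested. In RNA from whole cultures, fewer cells that make a transcript and less of it per cell cannot be told apart.

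The γ1 chain and the β1 chain are partners of the α4 chain, and LAMA4 and LAMC1 rose in the L243P clone while LAMB1 did not pass the test. The 250 bases before the start of these 3 genes are therefore shown (RefSeq, GRCh38.p14, 5′ to 3′ on the strand of the gene), with GC boxes (GGGCGG on either strand) in capitals.
LAMA4 promoter (chr6:112254568-112254817, minus strand): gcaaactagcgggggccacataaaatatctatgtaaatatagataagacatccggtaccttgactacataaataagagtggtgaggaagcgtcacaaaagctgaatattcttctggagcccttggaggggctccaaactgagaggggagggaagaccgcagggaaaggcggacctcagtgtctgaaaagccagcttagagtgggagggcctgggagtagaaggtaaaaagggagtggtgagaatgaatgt
LAMC1 promoter (chr1:183023170-183023419, plus strand): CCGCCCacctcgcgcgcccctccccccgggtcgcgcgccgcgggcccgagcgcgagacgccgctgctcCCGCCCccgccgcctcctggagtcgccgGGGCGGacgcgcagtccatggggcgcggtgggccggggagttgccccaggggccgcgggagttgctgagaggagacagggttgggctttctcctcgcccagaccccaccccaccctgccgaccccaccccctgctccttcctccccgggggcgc
LAMB1 promoter (chr7:108003162-108003411, minus strand): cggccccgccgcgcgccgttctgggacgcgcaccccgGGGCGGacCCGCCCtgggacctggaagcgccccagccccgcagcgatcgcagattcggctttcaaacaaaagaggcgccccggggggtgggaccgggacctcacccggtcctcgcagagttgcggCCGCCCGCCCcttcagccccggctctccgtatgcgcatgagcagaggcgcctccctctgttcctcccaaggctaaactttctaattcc
The LAMA4 stretch held 0 GC boxes and 48.4% G and C, the LAMC1 stretch 3 boxes and 79.6%, and the LAMB1 stretch 4 boxes, 2 of them overlapping, and 70.4%. Of 35116 RefSeq promoters cut to the same length, 42.6% held at least 1 GC box, and the median content of G and C was 58%. The TATA box (TATAAA), the CCAAT box (CCAAT), the AP-1 site (TGANTCA) and the core of the hypoxia response element (ACGTG), searched on both strands, were found in none of the 3 stretches. They occurred in 10.7%, 32.0%, 6.57% and 18.5% of all promoters of this length. The table held a promoter for 8 of the 9 chains, among them LAMA2 and not LAMA1. These matches describe letters in a window and not sites in use.

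Of the 8 measured chains, LAMA4 and LAMC1 rose in the L243P clone, LAMA1 fell, and 5 did not pass the test. Across all genes, 0.967% were called in either direction, 0.43% as higher and 0.537% as lower. The median log2 change was 0.057 over the chains and -0.020 over all genes, and leaving out wild-type replicate 2 gave the chains 0.0018, while leaving out wild-type replicate 1 gave them 0.11. The groups did not overlap for 6 of the 8 chains, 4 higher and 2 lower, against 38.0% of all genes (17.0% higher, 20.9% lower). Each change is the log2 ratio of the L243P to the wild-type clone. Its standard error (SE) comes from limma, with a prior that was robust and followed intensity, and calls use a Benjamini-Hochberg adjusted p with a threshold of 0.05. These 3 calls depend on that prior. With limma's default prior or with a trend alone, 0 chains and 0 genes were called, although 4 chains and 2785 and 2777 genes were at an unadjusted p under 0.05, and the median prior degrees of freedom fell to 1.12 and 1.20, against 3.95.

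**Figure D1:**
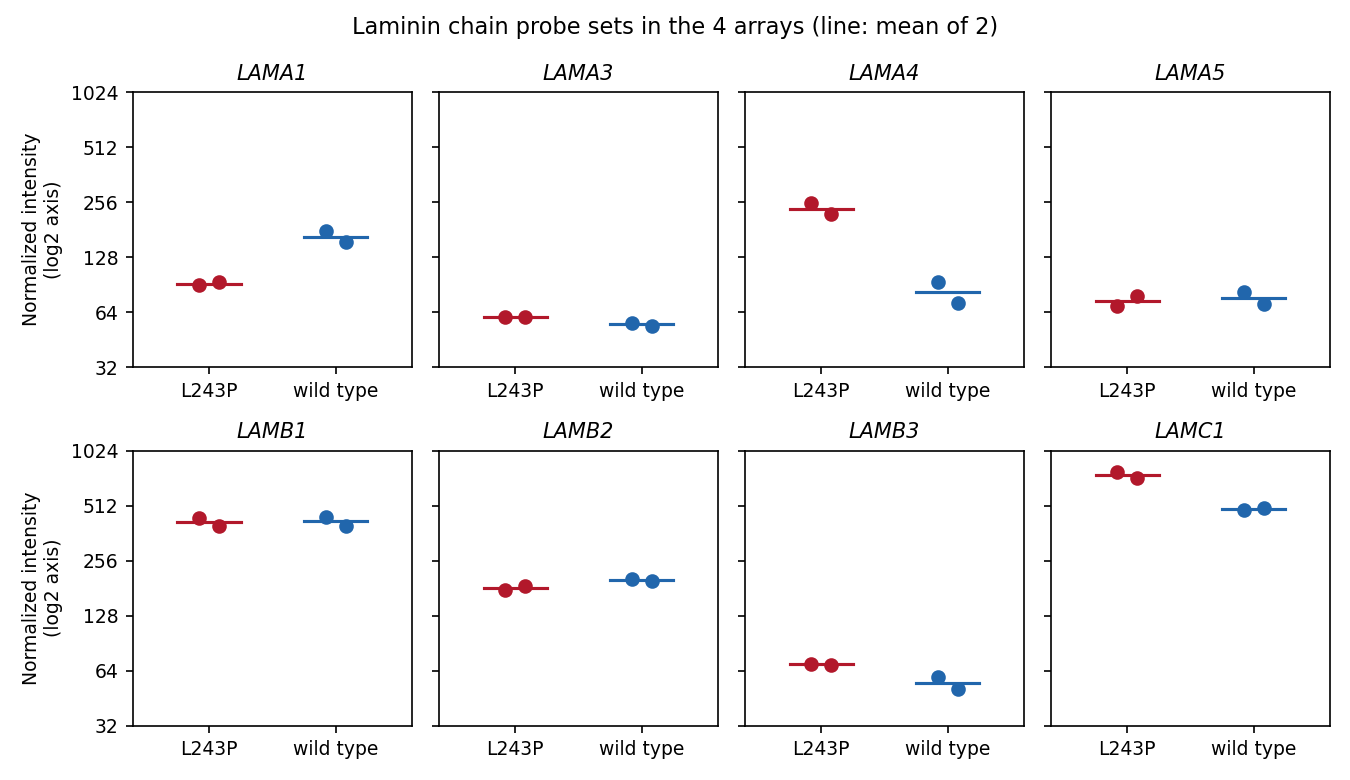
Normalized intensity (log2 axis) of the 8 measured laminin chains, with 1 point per array and a line at the mean of the 2 arrays of a clone. The L243P arrays lie above both wild-type arrays for LAMA3, LAMA4, LAMB3 and LAMC1, below both for LAMA1 and LAMB2, and overlap with them for LAMA5 and LAMB1.

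Among the α chains, which give a laminin its receptor binding, LAMA4 and LAMA1 moved in opposite directions. LAMA4 encodes the α4 chain, known from the basement membranes of blood vessels, muscle and peripheral nerve, which lacks most of the short arm. LAMA4 had intensities of 253 and 219 in the L243P clone, against 93 and 72 in the wild-type clone. Both L243P arrays were far above either wild-type array. The mean was 236.0 ± 24.0 in the L243P clone and 82.5 ± 14.8 in the wild-type clone (SD, n = 2 each), a fold of 2.88 with a 95% interval of 2.20 to 3.76. The log2 change was 1.52 (SE 0.16, adjusted p = 0.026, limma), rank 6 among the rises of 19555 genes. The authors' deposited table gives LAMA4 a fold of 2.9 (a score) and a rank product proportion of false positives (pfp) of 0.01, and their deposited gene summary a fold of 2.86.

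LAMA1, which encodes the α1 chain of early embryonic basement membranes, had intensities of 90 and 93 in the L243P clone, against 177 and 154 in the wild-type clone. The L243P arrays lay below both wild-type arrays and close to each other. LAMA1 averaged 91.5 ± 2.12 in the L243P clone and 165.5 ± 16.3 in the wild-type clone (SD, n = 2 each), and the log2 change was -0.85 (SE 0.12, adjusted p = 0.049, limma), rank 112 among the falls. The call was narrow. It was lost with 16 added before log2 (adjusted p = 0.052) and after quantile normalization (adjusted p = 0.054), with log2 changes of -0.75 and -0.86. In the authors' deposited table LAMA1 had a fold of -1.8 and a pfp of 0.12, inside their limit of 0.15, which 276 of the 29085 probe sets met.

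LAMA5 and LAMA3 did not pass. LAMA5 encodes the α5 chain, widespread in adult basement membranes, and had intensities of 69 and 78 in the L243P clone, against 82 and 71 in the wild-type clone. The groups overlapped, and the 95% interval of the log2 change (-0.057, SE 0.14) reached from -0.40 to 0.29. LAMA3, the α3 chain of epithelial laminin, was at 60 on both L243P arrays, against 56 and 54 on the wild-type arrays. That log2 change was 0.13 (SE 0.12, adjusted p = 0.81), with an interval of -0.17 to 0.43, although the groups did not overlap. The intervals of LAMA5 and LAMA3 leave out a change as large as that of LAMA4 or LAMA1.

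The β chains did not pass. LAMB1 encodes the β1 chain, which joins α1, α2, α4 or α5 and γ1 in widespread laminins, and had intensities of 438 and 394 in the L243P clone, against 444 and 395 in the wild-type clone. In each clone replicate 1 was the higher array, and the clone means were 416.0 ± 31.1 with L243P and 419.5 ± 34.6 with wild type (SD, n = 2 each). The log2 change of LAMB1 was -0.012 (SE 0.10), with a 95% interval of -0.26 to 0.24, and median centring turned its sign (0.018). LAMB2, the β2 chain of muscle, kidney and vessel laminins, had 177 and 187 in the L243P clone, against 204 and 199 in the wild-type clone. Its L243P arrays were slightly below both wild-type arrays (log2 change -0.15, SE 0.093, adjusted p = 0.65). LAMB3, the β3 chain, a partner of α3 in skin, had 70 and 69 in the L243P clone, against 59 and 51 in the wild-type clone, and its log2 change of 0.34 (SE 0.13, unadjusted p = 0.045, limma) had an adjusted p of 0.41.

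LAMC1 encodes the γ1 chain, a part of most laminins. LAMC1 had intensities of 781 and 727 in the L243P clone, against 481 and 495 in the wild-type clone. The L243P arrays lay well above both wild-type arrays, and the replicates of each clone were close. The mean was 754.0 ± 38.2 in the L243P clone and 488.0 ± 9.90 in the wild-type clone (SD, n = 2 each), a fold of 1.54 with a 95% interval of 1.35 to 1.77, and the log2 change was 0.63 (SE 0.079, adjusted p = 0.044, limma). In the authors' deposited table LAMC1 had a fold of 1.5 and a pfp of 0.279, outside their limit, so that 2 of the 8 chains, LAMA4 and LAMA1, met it.

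Of the chains outside the 9, LAMC3 and LAMB4 were analysed and neither was called, with LAMB4 at an unadjusted p of 0.037 (limma). LAMC3, the γ3 chain, was at 64 and 78 in the L243P clone, against 84 and 69 in the wild-type clone, and the groups overlapped (log2 change -0.11, SE 0.16). LAMB4, a further β chain gene, was dim, at 10 on both L243P arrays and at 14 and 12 on the wild-type arrays (log2 change -0.37, SE 0.14, adjusted p = 0.38, and -0.16 with 16 added before log2). Detection calls were not used here, and at such intensities signal cannot be told from background.

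**Figure D2:**
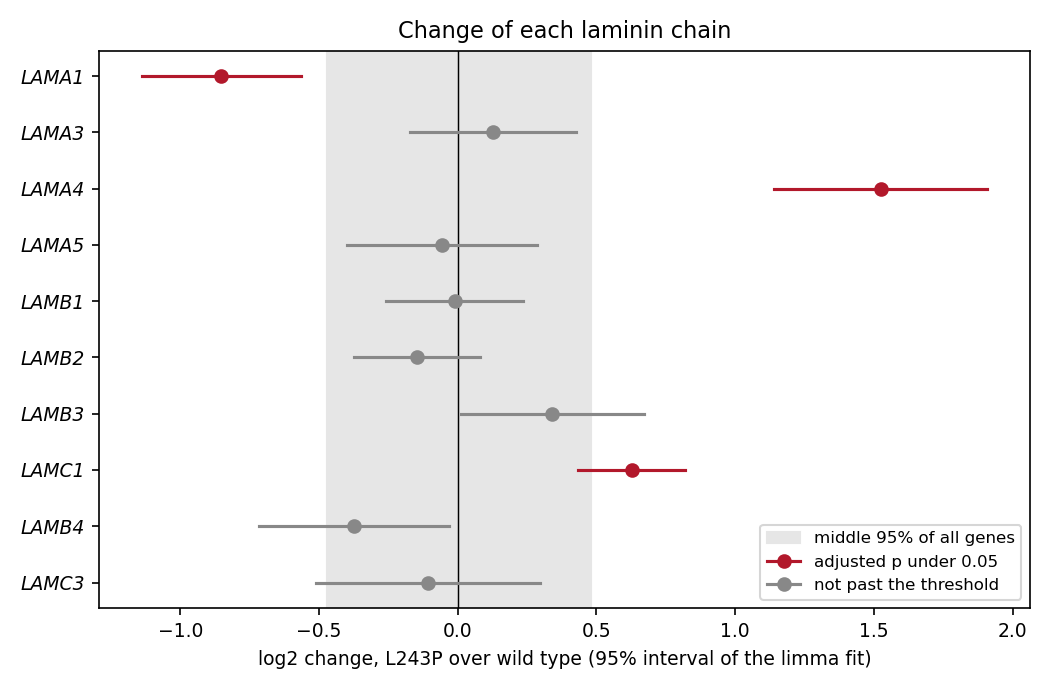
Log2 change, L243P over wild type, of 10 laminin chains (points) with the 95% interval of the limma fit (lines), over the middle 95% of all genes (grey, -0.47 to 0.48). LAMA4 and LAMC1 lie to the right of the grey band and LAMA1 to its left, and the other 7 have points inside it.

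Unequal change of the α4, β1 and γ1 chains, which can join in 1 laminin, was measured within the arrays, as the change of the log2 ratio of both probe sets between the clones. These 3 ratios were chosen with the changes known. The ratio of LAMA4 to LAMB1 was 1.54 higher on the log2 scale in the L243P clone, and it was between 1.41 and 1.66 higher in each of the 4 pairings of an L243P with a wild-type array. For LAMC1 over LAMB1 the difference was 0.64 (0.51 to 0.77 over the 4 pairings), and for LAMA4 over LAMC1 it was 0.90 (0.64 to 1.16). The exact two-sided permutation p was 0.33 for each of the 3 ratios, before any adjustment, which is the smallest that 2 arrays against 2 allow.

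Position on the chromosome was compared for each chain through the 10 measured genes before and the 10 after it. For LAMA4 their log2 changes had a median of -0.023 and lay between -0.35 and 0.36, and 0 of the 20 moved as far as LAMA4 itself. Around LAMA1 the median was -0.0031 (-1.08 to 0.38), and 1 of the 20 moved as far. The 20 neighbours of LAMC1 had a median of 0.20 (-0.29 to 0.71), 0 of them were called, and 1 had moved at least as far as LAMC1. Its sides were unlike. The 10 genes before LAMC1 had a median of 0.029, with 5 above 0, and the 10 after it a median of 0.47, with 10 above 0. The log2 change of LAMC1 was 0.43 with the median of all 20 subtracted, 0.60 with that of the 10 before and 0.15 with that of the 10 after, and the part of the neighbourhood in it was not tested. Subtracting the median of all 20 left LAMA4 at 1.55 and LAMA1 at -0.85.

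**Figure D3:**
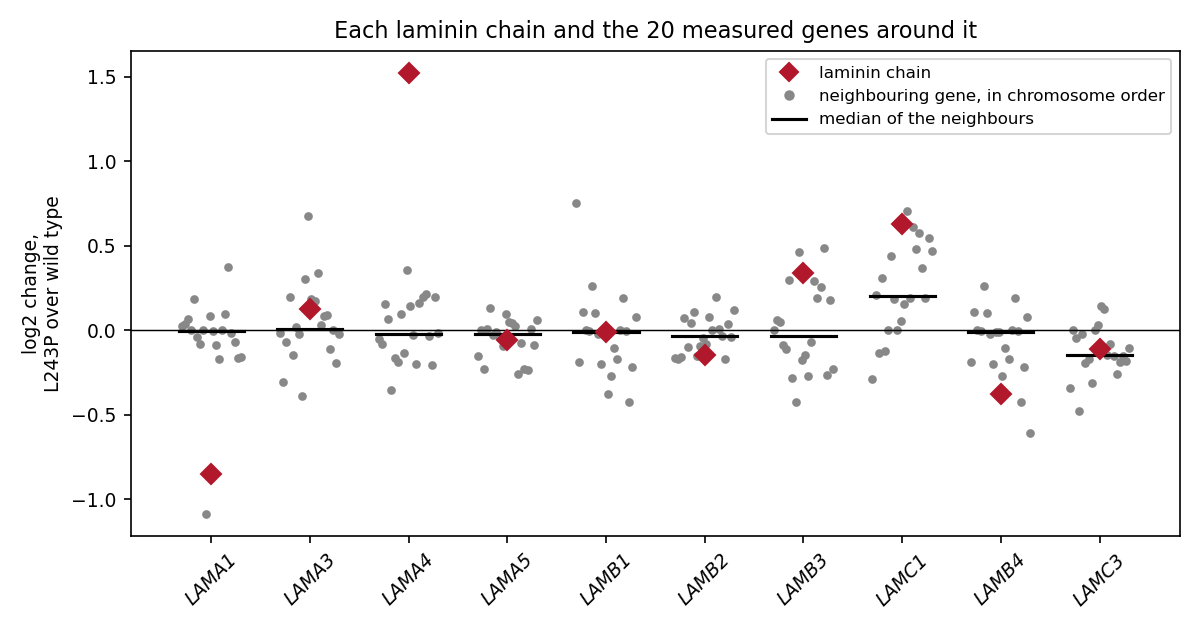
Log2 change, L243P over wild type, of each laminin chain (diamonds) and of the 20 measured genes nearest to it in chromosome order (points, with the median as a line). LAMA4 stands above and LAMA1 below nearly all their neighbours, and LAMC1 stands among neighbours with medians of 0.029 before it and 0.47 after it.

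The 5 genes most like each called chain were found by the root mean square distance between log2 values centred on each gene's mean over the 4 arrays. LAMA4 was nearest to FAIM2, MRGPRF, IL33, FABP3 and SYT13, at distances of 0.084 to 0.15, and FAIM2 had 258 and 233 in the L243P clone, against 101 and 86 in the wild-type clone. LAMC1 was nearest to ACSF2, ARGLU1, XPOT, GPR137B and TIMP4 (0.015 to 0.030), of which GPR137B lies on chromosome 1, as LAMC1 does. LAMA1 was nearest to ATP10D, CTBP1-DT, TBC1D14, ARAP2 and NFKBIZ (0.041 to 0.064), of which 4 lie on chromosome 4 and LAMA1 itself on chromosome 18. Of the 5 nearest genes, 4 were called for LAMA4, 1 for LAMC1 and 1 for LAMA1, against 0.967% of all genes. These genes were picked for profiles like that of a called chain, so the counts were partly set by the choice. They are not a separate result. The share of all genes on chromosome 4 was not computed, so nothing is read from that position. Each distance rests on 4 arrays.

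Of 16 measured genes for other components of the basement membrane, 0 were called, and the median log2 change was -0.025. In this list 1 was at an unadjusted p under 0.05 (limma), against 13.5% of all genes. The collagen IV genes were dim. COL4A4 was at 26 and 34 in the L243P clone, against 37 and 33 in the wild-type clone, COL4A3 at 23 on both, against 26 on both, and COL4A1 at 29 and 34, against 35 and 32. NID2, which encodes nidogen 2, a linker between the laminin γ1 chain and collagen IV, was farthest from 0 in the list, at 147 and 138 in the L243P clone, against 98 and 97 in the wild-type clone. The NID2 arrays did not overlap between the clones, but its log2 change of 0.55 (SE 0.11) did not pass (adjusted p = 0.11). The other linker gene, NID1, was at 19 on both L243P arrays, against 23 and 19 on the wild-type arrays, and the perlecan gene HSPG2 was at 53 on both, against 58 and 52.

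Of 13 measured genes for laminin receptors and their partners, 0 were called, with a median of 0.06. In this list 4 were at an unadjusted p under 0.05 (limma), against 13.5% of all genes. The groups did not overlap for 9 of the 13, 5 higher and 4 lower, against 38.0% of all genes. MCAM, an adhesion molecule known to bind laminins with the α4 chain, had 156 and 150 in the L243P clone, against 92 and 96 in the wild-type clone. Both L243P arrays were above both wild-type arrays, and the log2 change of 0.70 (SE 0.10) missed the threshold (adjusted p = 0.058). MCAM passed after median centring (adjusted p = 0.011, limma) and with the dimmer 50% of rows left out (adjusted p = 0.023), and in no other run. These runs called 505 of 19555 and 440 of 11954 genes, against 189 of 19555 in the fit used here. ITGA6, an integrin subunit gene, was dim, at 13 and 12 in the L243P clone, against 17 and 21 in the wild-type clone (log2 change -0.60, SE 0.16, adjusted p = 0.21). ITGA2, another such gene, had 210 and 186 in the L243P clone, against 272 and 287 in the wild-type clone (log2 change -0.50, SE 0.10, adjusted p = 0.12). The integrin subunit ITGB1, shared by most laminin receptors, had 910 and 966 in the L243P clone, against 850 and 826 in the wild-type clone (log2 change 0.16, adjusted p = 0.49), and DAG1, the dystroglycan gene, had 137 and 136, against 119 and 131 (log2 change 0.13).

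The sugar chain of dystroglycan that binds laminin is built by a series of enzymes, and 0 of 10 measured genes of that list were called. Their log2 changes lay between -0.26 and 0.17, and 2 were at an unadjusted p under 0.05 (limma), against 13.5% of all genes. POMT1 and POMT2, which encode the enzymes that add the first mannose, were at -0.26 and -0.25, and POMK, a kinase of the same sugar chain, at -0.25 (adjusted p = 0.48, 0.42 and 0.41). Of 6 netrin genes, relatives of the laminin short arm, 0 were called (1 at an unadjusted p under 0.05, limma, against 13.5% of all genes). NTNG1 was farthest from 0, with 164 and 167 in the L243P clone, against 122 and 114 in the wild-type clone (log2 change 0.49, adjusted p = 0.13). Of 12 genes for proteases that can cleave laminins, 1 fell and 0 rose, against 0.967% of all genes called in either direction. In this list 3 were at an unadjusted p under 0.05 (limma), against 13.5% of all genes. The groups did not overlap for 4 of the 12, 1 higher and 3 lower, against 38.0% of all genes. MMP3, the stromelysin, had 2665 and 2627 in the L243P clone, against 5455 and 6475 in the wild-type clone, a log2 change of -1.17 (SE 0.098, adjusted p = 0.014, limma). PLAU, the urokinase that activates plasminogen, had 566 and 605 in the L243P clone, against 877 and 821 in the wild-type clone. Its log2 change of -0.54 (SE 0.081) did not pass (adjusted p = 0.062, limma). PLAU passed only with the dimmer 50% of rows left out (adjusted p = 0.020, limma). That run called 440 of 11954 genes, against 189 of 19555 in the fit used here. MMP2 went the other way, with 4636 and 4847 in the L243P clone, against 4221 and 4149 in the wild-type clone. Its arrays did not overlap, and its log2 change of 0.18 did not pass (adjusted p = 0.40, limma).

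**Figure D4:**
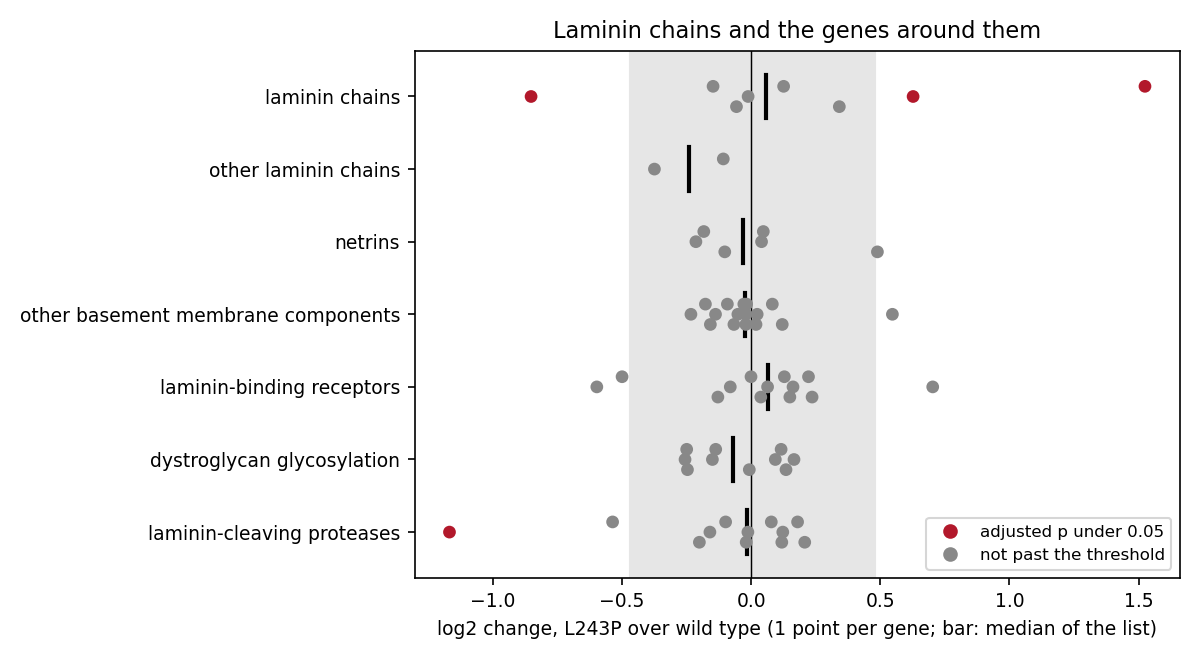
Log2 change, L243P over wild type, of every measured gene in the laminin list and in 6 lists of related genes (points), with the median of each list as a bar and the middle 95% of all genes in grey. LAMA4, LAMC1, LAMA1 and the protease gene MMP3 passed the threshold, and the medians of the 7 lists lie between -0.24 and 0.06.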

How the data were processed

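According to the authors' deposited description, normalized intensities per probe set came from CEL files by RMA summary, quantile normalization and RMA background correction, with analysis in Rosetta Resolver. RMA is also named in the submitters' processing notes. The deposited intensities are linear and rounded to whole numbers. No source used here gives a version or a genome build. The deposited signed fold and pfp are scores (the fold skips values between -1 and 1, and the pfp can pass 1). The deposited ratio-based, analysis-of-variance and rank product p-values were not used in a test. The direction of the rank product columns was read from the values. The 116340 cells of the series matrix table equal those of the complete table.

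Of 19607 usable names, 18201 matched a RefSeq symbol or a single older symbol (GRCh38.p14, used for names, neighbours and promoters). A gene was represented by its brightest probe set on average, which gave 27533 rows with 7978 unnamed ones. Intensities were log2 transformed without pseudocount or filter and fitted with limma 3.58.1 (R 4.3.3, trend = TRUE, robust = TRUE) on group alone, with Benjamini-Hochberg adjustment over all rows. The fit was tested on simulated data in which all rows had a common spread. That test therefore cannot decide on calls that depend on the prior. The fit was taken from an earlier account of these data in which the default prior had made no call. The members and lists were chosen with earlier results of these data known. Named genes are the laminin chains analysed, the called members and up to 4 members of each other list, taken in order of the size of change, and the 5 genes nearest to each called chain. Others named (COL4A1, NID1, HSPG2, ITGB1, DAG1, MMP2 and the cell type markers) were chosen after their values were seen. Arrays have no depth, and precision is limited by there being 4 of them. One result is not reported here. The alternatives are given in the closing section. The columns used were matched to samples through the sample descriptions.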

Additional observations from a re-analysis of the deposited data

How the results depend on the processing

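LAMA4, LAMC1 and LAMA1 kept their direction under every alternative run, but their calls depended on the fit. With limma's default prior, with a trend but no robust prior, and with a replicate block, 0 of the 8 chains and 0 genes were called, at unchanged log2 changes of 1.52, 0.63 and -0.85. The adjusted p of all 3 chains was 0.26 with the default prior, 0.17 to 0.18 with the trend alone and 0.65 with the block. That block rests on a shared number alone. The labels do not say that a replicate number is shared across the clones, so nothing was paired in the fit used here. Replicate differences correlated at -0.23 between the clones over 19555 genes. Numbers could be crossed between the clones, so that value cannot decide on pairing. The block had 1637 genes at an unadjusted p under 0.05 (limma). Median centring called 505 of 19555 genes (2.58%, 282 higher, 223 lower). Leaving out the dimmer 50% of rows called 440 of 11954 (3.68%, 257 higher, 183 lower). The fit used here called 189 of 19555 (0.967%, 84 higher, 105 lower), and 3 chains were called in both alternatives. LAMA1 lost its call after quantile normalization (-0.86) and with 16 added (-0.75), which left 2 chains. Subtracting the median of the 20 neighbours moved LAMC1 to 0.43. With one side alone, an alternative chosen after seeing the data, it was 0.60 (genes before) and 0.15 (genes after). Without 1 array, 0 genes and 0 chains were called (2308 to 3487 genes at an unadjusted p under 0.05, limma). The ranges were then 1.34 to 1.71 for LAMA4, 0.58 to 0.68 for LAMC1 and -0.95 to -0.75 for LAMA1, and 0.0018 to 0.11 for the median of the chains. LAMB4 was at -0.16 with 16 added, against -0.37. Without 1 array, LAMB1 ranged from -0.096 to 0.073 (0.065 without L243P replicate 2), LAMA5 from -0.16 to 0.047 and LAMC3 from -0.25 to 0.035, so their signs are not settled, and LAMB1 was at 0.018 after median centring. The causes were not tested. All-gene medians moved by less than 0.1 under each scaling.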

Other observations

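LAMB1 and LAMB4 are neighbours, and the genes around LAMB1 had a median of -0.0070.

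The replicates of a clone differed by chain. Replicate 1 over replicate 2 on the log2 scale was 0.21 in the L243P clone and 0.37 in the wild-type clone for LAMA4, and 0.15 and 0.17 for LAMB1. For LAMA5 it was -0.18 in the L243P clone and 0.21 in the wild-type clone.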
